A study of Mus musculus with 6 samples.

Results

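The receptor chains through which CD8+ T cells read IL-2, IL-15, IL-7, IL-4, IL-21, IL-12, and IL-18 were compared between effector (TEff) and tissue-resident memory-like (TRM-like) cells. The 10 chains were taken by name as rows of the count table, after each gene identifier had been matched to its symbol in the GENCODE mouse annotation: Il2ra, Il2rb, Il2rg, Il15ra, Il7r, Il4ra, Il21r, Il12rb1, Il12rb2, and Il18r1. They are 10 of 57126 genes in the table. All 10 passed the filter on low counts, at least 1 count in at least 3 samples, together with 26154 genes in all. The choice was by name and used no value of the chains as a rule, but it was made with earlier results of these data known.

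Cytokine receptors of this kind are built from chains that are shared between cytokines and chains that are private to one of them. The common gamma chain, encoded by Il2rg, pairs with a private chain to bind IL-7, IL-4, or IL-21, and with the beta chain, encoded by Il2rb, to bind IL-2 or IL-15, whose alpha chains Il2ra and Il15ra set the affinity. Il12rb1 and Il12rb2 form the IL-12 receptor, Il18r1 and Il18rap form the IL-18 receptor, and in CD8+ T cells these inflammatory cytokines are known to enhance IFN-γ production.

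RNA was sequenced from 6 samples of mouse CD8+ T cells, 3 TEff and 3 TRM-like. All came from lymph nodes and spleens of OT-I mice, whose transgenic T cell receptor recognizes an ovalbumin peptide, and all were expanded until day 6 with nano-aAPCs, iron oxide particles carrying that peptide in the H-2Kb molecule and an antibody to CD28. The TEff medium contained IL-2, and the TRM-like medium contained IL-2, IL-15, and TGF-β, so that IL-15 and TGF-β were added together and their effects cannot be told apart. The IL-2 is written as mouse IL-2 in the labels and as human IL-2 in the expansion methods, and neither the strain background nor the age or number of mice is given for these samples. The cells model a culture with 1 antigen receptor specificity, not memory cells taken from a tissue. Nothing in the labels says that the samples of a group came from separate mice or cultures, so every p-value measures only the spread between these samples, which may be technical.

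Total counts were 18319013 to 21960760 in TEff and 21178756 to 23622621 in TRM-like samples. TRM-like replicate 3 stood apart from the other two: the chi-square per gene between count profiles was 7.26 for TRM-like replicates 1 and 2, 96.3 and 112 between each of these and replicate 3, and 37.4 between replicate 3 and TEff replicate 3. TRM-like replicates 1 and 2 also had reads from more genes, 35130 and 35559 against 24229 to 24908 in the other 4 samples, and 1546 olfactory and vomeronasal receptor genes, which T cells are not known to use, stood at 0.028 and 0.029 RPKM in them against 0.004 to 0.006 RPKM elsewhere. The lowest value of any of the 10 chains, 2.56 RPKM, lay far above this level. RPKM here is the read count divided by the gene length in kilobases and by the library size after TMM scaling, and CPM is the same without the division by length. Among TEff samples, replicate 2 was the farthest from the others, at 26.1 and 25.4 against 3.73 between replicates 1 and 3. Because TRM-like replicate 3 stood apart the most, differences are also given without it where that changed a call or a value by much. Of the TEff samples, replicate 2 was nearest to TRM-like replicates 1 and 2, at 54.3 and 68.9. It was farthest from TRM-like replicate 3, at 82.4. The paper removed a batch effect, but its text names no batch. What leaving out TRM-like replicate 3 changes cannot be told apart from such structure across the groups. Of the CD8 T cell markers, all 6 were found, Cd8a, Cd8b1, Cd3d, Cd3e, Cd3g, and Trac, with a summed level of 2013 to 2154 CPM in TEff and 2579 to 3713 CPM in TRM-like samples. Summed CPM in TEff and TRM-like samples was 0.718 to 1.22 and 0.917 to 1.57 for CD4 or regulatory T cell markers, 5.94 to 6.78 and 7.29 to 10.9 for B cell markers, 16.6 to 22.6 and 13.9 to 17.2 for dendritic cell markers, 46.2 to 63.2 and 19.5 to 41.3 for stromal or endothelial markers, and 149 to 203 and 126 to 153 for gamma delta T cell markers. Most of the sum came from Cd79b for B cell, H2-Ab1 for dendritic cell, Pecam1 for stromal or endothelial, and Trdc for gamma delta T cell markers. Of the 4 gamma delta markers, 3 were found. TEff samples had 832 to 1245 reads of Pecam1 against 4 to 8 of Col1a1. They had 2728 to 3917 reads of Trdc against 32 to 68 of Sox13. Such sums do not show how many cells of a type were present. Macrophage, granulocyte, and erythroid markers each summed to at most 1.66 CPM.

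Il18r1 was the 1 chain of the 10 that differed past the threshold in edgeR's quasi-likelihood test, which asked for a log2 fold change of more than 0.58 in either direction and p below 0.05 after Benjamini-Hochberg adjustment over all genes tested. It fell in TRM-like cells. Over all genes tested, 3.01% passed the threshold, 1.52% higher and 1.48% lower in TRM-like cells. The groups did not overlap for 6 chains. Il15ra, Il21r, and Il12rb1 were higher in every TRM-like sample than in any TEff sample, as were 10.6% of all genes, and Il7r, Il4ra, and Il18r1 were lower, as were 9.71% of all genes. The median log2 fold change of the 10 chains was −0.07, beside 0.02 over all genes tested. None of the 10 passed as higher in the edgeR test, beside 3 that were higher at an unadjusted p below 0.05, 1 that passed with DESeq2, and 0 with limma-voom. Without TRM-like replicate 3, 5 of the 10 chains passed, Il15ra and Il12rb2 as higher and Il18r1, Il2ra, and Il7r as lower, beside 14% of all genes. In these bulk samples, fewer cells that express a gene and less RNA per cell cannot be told apart.

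**Figure D1:**
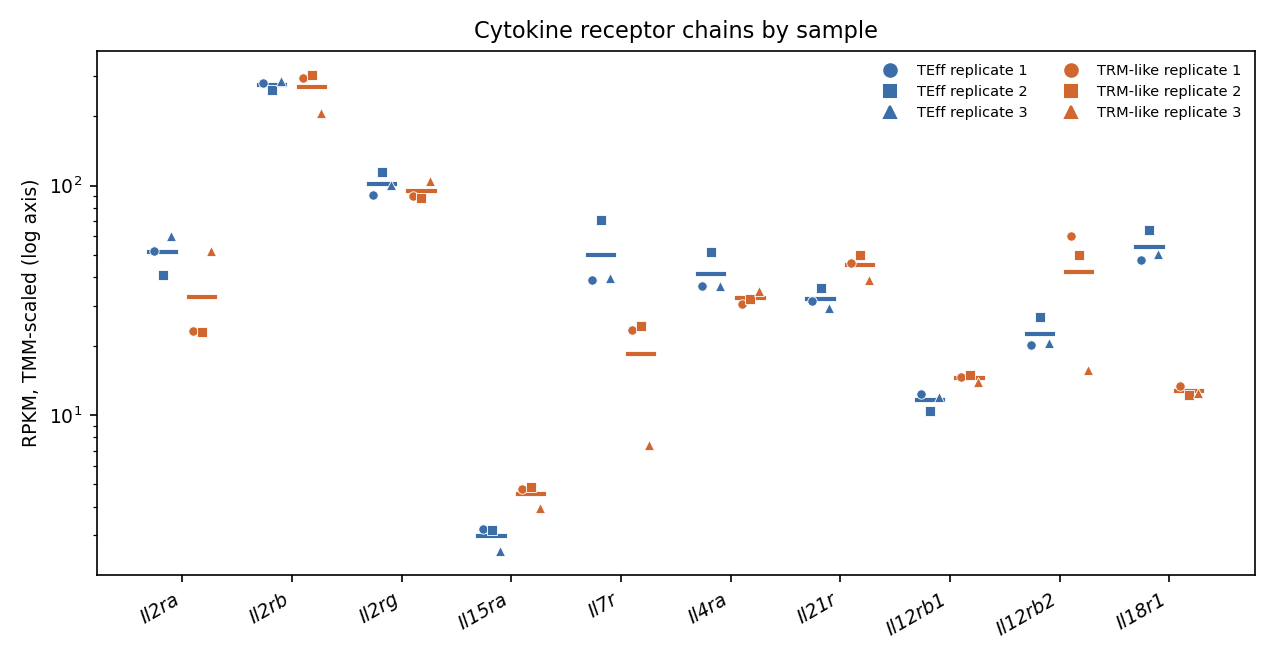
Level of each receptor chain in each sample as TMM-scaled RPKM on a log axis, with TEff in blue, TRM-like in orange, the symbol shape giving the replicate, and the bar the group mean. Il18r1 lies at 12.2 to 13.4 RPKM in the TRM-like samples and at 47.6 to 64.2 RPKM in TEff, while TRM-like replicate 3 (triangle) lies away from the other TRM-like samples for Il2ra, Il7r, and Il12rb2.

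The chains spanned a wide range of levels. By mean RPKM, the order in TEff was Il2rb, Il2rg, Il18r1, Il2ra, Il7r, Il4ra, Il21r, Il12rb2, Il12rb1, and Il15ra. The sample ranges of neighbors in this order overlapped from Il18r1 through Il2ra and Il7r to Il4ra, so these 4 could not be ranked, and the other neighbors did not overlap. In TRM-like cells the order was Il2rb, Il2rg, Il21r, Il12rb2, Il2ra, Il4ra, Il7r, Il12rb1, Il18r1, and Il15ra, where Il21r, Il12rb2, Il2ra, and Il4ra overlapped from one to the next, as did Il7r and Il12rb1. Il18r1 moved from rank 798 to rank 3911 among the 14484 tested protein-coding genes ordered by mean RPKM. The 10 chains together summed to 613, 679, and 635 RPKM in TEff and to 600, 604, and 491 RPKM in TRM-like replicates 1, 2, and 3.

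Il2rb and Il2rg, the shared signaling chains of the IL-2 and IL-15 receptors, were the most abundant. Il2rb (chr15:78363456-78395566, minus strand, 10 exons in its canonical transcript) was at 280, 261, and 284 RPKM in TEff and at 293, 304, and 207 RPKM in TRM-like cells. The groups overlapped, and the TRM-like samples held both the highest and the lowest value. Its log2 fold change was −0.04 (SE 0.18, 95% interval −0.44 to 0.36, edgeR quasi-likelihood adjusted p = 0.954). The sign was not settled, with 0.11 on the log2 scale without TRM-like replicate 3. By rank, 119 in TEff and 128 in TRM-like cells, it stood near the top of the tested protein-coding genes. Il2rb made up 38.5% to 50.3% of the summed RPKM of the 10 chains in each sample.

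Il2rg (chrX:100307984-100311861, minus strand, 8 exons), the common gamma chain itself, was at 90.9, 115, and 100.1 RPKM in TEff and at 90.1, 88.5, and 105 RPKM in TRM-like cells. The samples of both groups were interleaved. Its log2 fold change was −0.11 (SE 0.14, 95% interval −0.43 to 0.22, edgeR quasi-likelihood adjusted p = 0.792). An interval of this width does not show that the levels were equal.

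The alpha chains of the 2 receptors that share these partners lie next to each other on chromosome 2, on the same strand and 12.1 kb apart. Il2ra (chr2:11647618-11698004, 8 exons), the high-affinity chain for IL-2 and a known target of IL-2 signaling through STAT5, was at 52.1, 41.0, and 60.5 RPKM in TEff and at 23.3, 23.0, and 52.0 RPKM in TRM-like cells. TRM-like replicates 1 and 2 were below every TEff sample, and replicate 3 was within the TEff range. The log2 fold change of −0.64 (SE 0.31, 95% interval −1.35 to 0.07) did not pass (edgeR quasi-likelihood adjusted p = 0.394). It passed at −1.15 (SE 0.15, edgeR adjusted p = 0.000135) without TRM-like replicate 3.

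Il15ra (chr2:11710101-11739128, 7 exons), which binds IL-15 and can present it to neighboring cells, was the least abundant chain in both groups. It was at 3.19, 3.16, and 2.56 RPKM in TEff and at 4.76, 4.88, and 3.94 RPKM in TRM-like cells, from 106 to 256 reads per sample. Every TRM-like sample was higher than every TEff sample. The log2 fold change was 0.61 (SE 0.17, 95% interval 0.22 to 1.00), with an edgeR quasi-likelihood adjusted p of 0.123, which did not pass. Leaving out TRM-like replicate 3 gave 0.69 (SE 0.15, edgeR adjusted p = 0.00574), past the threshold.

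Il7r, Il4ra, and Il21r encode the private chains that join the common gamma chain for IL-7, IL-4, and IL-21. Il7r (chr15:9505874-9530262, minus strand, 8 exons), the receptor for a survival cytokine of naive and memory T cells, was at 38.9, 70.5, and 39.6 RPKM in TEff and at 23.6, 24.5, and 7.41 RPKM in TRM-like cells. All TRM-like samples were lower than all TEff samples, with TEff replicate 2 the highest and TRM-like replicate 3 the lowest. The log2 fold change of −1.42 was the second largest of the 10 in size (SE 0.42, 95% interval −2.38 to −0.47, edgeR quasi-likelihood adjusted p = 0.138), and it did not pass. With TRM-like replicate 3 left out, it passed at −1.05 (SE 0.21, edgeR adjusted p = 0.00333).

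Il4ra (chr7:125151079-125182844, 11 exons) and Il21r (chr7:125202601-125232756, 9 exons) are neighbors on the plus strand of chromosome 7, 19.8 kb apart, and their values lay in opposite directions. Il4ra, which is also part of the IL-13 receptor, was at 36.4, 51.1, and 36.5 RPKM in TEff and at 30.4, 32.2, and 34.8 RPKM in TRM-like cells. The groups did not overlap, but the highest TRM-like sample lay just below the lowest TEff samples. Its log2 fold change of −0.35 (SE 0.17, 95% interval −0.73 to 0.03) did not pass (edgeR quasi-likelihood adjusted p = 0.377). It moved to −0.17 without TEff replicate 2, the highest sample. Il21r, the receptor for a cytokine made mainly by CD4+ helper T cells, was at 31.4, 35.7, and 29.3 RPKM in TEff and at 46.2, 50.1, and 38.7 RPKM in TRM-like cells. Again no sample crossed over, with a log2 fold change of 0.49 (SE 0.15, 95% interval 0.15 to 0.82, edgeR quasi-likelihood adjusted p = 0.147) that did not pass, nor did it reach the fold threshold without TRM-like replicate 3, at 0.57.

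**Figure D2:**
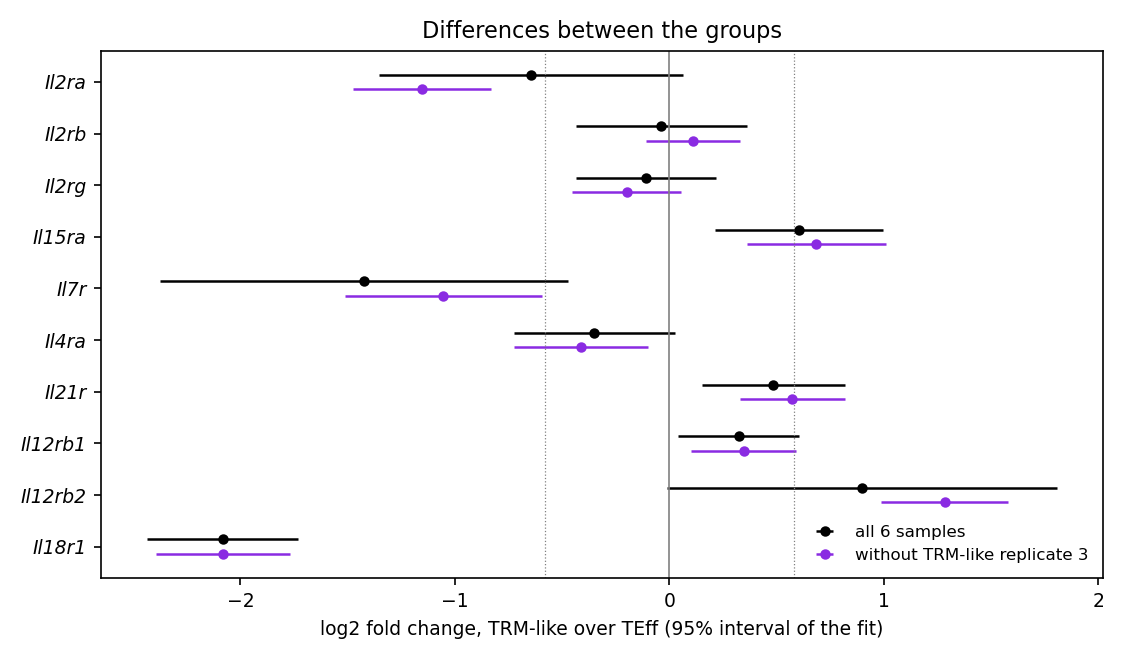
Log2 fold change (TRM-like over TEff) of each receptor chain with the 95% interval of the edgeR fit, over all 6 samples (black) and without TRM-like replicate 3 (purple), with dotted lines at the fold threshold of 0.58. Il18r1 lies at −2.08 in both. The intervals of all 10 chains narrow when replicate 3 is left out, by the most for Il2ra, Il7r, and Il12rb2.

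Of the IL-12 receptor chains, Il12rb1 (chr8:71261093-71276183, 16 exons), which is shared with the IL-23 receptor, was at 12.3, 10.4, and 12.002 RPKM in TEff and at 14.6, 15.0, and 13.9 RPKM in TRM-like cells. Each TRM-like sample was above each TEff sample by a small margin. The log2 fold change was 0.32 (SE 0.12, 95% interval 0.04 to 0.61, edgeR quasi-likelihood adjusted p = 0.266), which did not pass.

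Il12rb2 (chr6:67268302-67353172, minus strand, 16 exons), the inducible chain that recruits STAT4, was at 20.2, 26.7, and 20.6 RPKM in TEff and at 60.4, 49.7, and 15.7 RPKM in TRM-like cells. The TRM-like samples held the 2 highest values and the lowest value of the 6. The log2 fold change of 0.90 (SE 0.40, 95% interval −0.01 to 1.81, edgeR quasi-likelihood adjusted p = 0.345) did not pass. Over the other 5 samples, without TRM-like replicate 3, it was 1.28 (SE 0.14, edgeR adjusted p = 2.66e-05), past the threshold. Exons of Serbp1, on the opposite strand, cover 1519 of the 3794 exonic bases of Il12rb2 (40.0%) in the annotation used here. The setting for strand in the counting is not given in the sources used here, so reads from that stretch cannot be assigned with certainty, and the exons of Serbp1 summed to 20270 bases in this annotation against 15474 in the count table. Serbp1 was at 39.4, 32.6, and 41.4 RPKM in TEff and at 27.5, 28.6, and 44.6 RPKM in TRM-like cells, with its order among the TRM-like samples the reverse of that of Il12rb2. Opposite-strand exons of long noncoding RNA genes also cover 8.65% of the exonic bases of Il2rb (Gm62993) and 5.72% of those of Il4ra (Gm44876).

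Il18r1 (chr1:40504712-40540014, plus strand, 11 exons), the chain that binds IL-18, was at 47.6, 64.2, and 50.1 RPKM in TEff and at 13.4, 12.2, and 12.5 RPKM in TRM-like cells. The groups were far apart, and the 3 TRM-like samples, replicate 3 included, lay close together. Its mean fell 4.24-fold, from 54.0 ± 8.94 to 12.7 ± 0.618 RPKM (SD, n = 3 each), a log2 fold change of −2.08 (SE 0.16, 95% interval −2.44 to −1.73, edgeR quasi-likelihood adjusted p = 0.000254). Without TRM-like replicate 3 the log2 fold change was also −2.08 (SE 0.14, edgeR adjusted p = 4.77e-07).

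The second chain of the IL-18 receptor, Il18rap (chr1:40554522-40590865), which is needed for signaling, also fell. It was at 31.2, 34.6, and 34.9 RPKM in TEff and at 10.8, 9.47, and 8.11 RPKM in TRM-like cells, with no overlap. The mean fell 3.55-fold, a log2 fold change of −1.83 (SE 0.15, edgeR quasi-likelihood adjusted p = 0.000392), and without TRM-like replicate 3 it was −1.74 (SE 0.12). Both chains are also known from NK cells, and the CD8+ T cells were isolated magnetically at the start of culture. The 4 NK cell markers, all found and 3 of them at 0 in at least 1 library, summed to 9.97 to 22.3 CPM in TEff and to 0.0922 to 8.98 CPM in TRM-like samples, nearly all from Klrb1c, which was at 3.72, 8.33, and 4.49 RPKM in TEff and at 3.25, 2.54, and 0.035 RPKM in TRM-like cells. Within the TRM-like group, Il18r1 was at 13.4 and 12.2 RPKM in replicates 1 and 2, with a marker sum of 8.98 and 7.12 CPM, and at 12.5 RPKM in replicate 3, with a sum of 0.0922 CPM. Within TEff, Il18r1 was at 47.6, 64.2, and 50.1 RPKM in replicates 1, 2, and 3, with marker sums of 9.97, 22.3, and 11.9 CPM. Both were highest in TEff replicate 2. A contribution of NK cells was not tested.

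Il18r1 and Il18rap lie in a cluster of IL-1 receptor family genes on the plus strand of chromosome 1, which was looked at after the values of these 2 genes had been seen. In genomic order the cluster holds Il1r2, Il1r1, Il1rl2, Il1rl1, Il18r1, and Il18rap. Il1rl1, which encodes the IL-33 receptor and ends 0.137 kb before Il18r1 begins, was at 0.247, 0.118, and 0.267 RPKM in TEff and at 0.0383, 0.0256, and 0.0270 RPKM in TRM-like cells, from 100 reads in all 6 samples. It fell by 2.76 on the log2 scale (SE 0.46, edgeR quasi-likelihood adjusted p = 0.0130). Il1rl2, which encodes the IL-36 receptor, was at 1.02, 0.752, and 1.09 RPKM in TEff and at 0.313, 0.216, and 0.262 RPKM in TRM-like cells, and fell by 1.85 (SE 0.27, edgeR adjusted p = 0.00688). Both genes were thus low in every sample, and both had no overlap between groups. In TRM-like replicates 1 and 2, Il1rl1 lay near the 0.028 and 0.029 RPKM of the olfactory and vomeronasal receptor genes.

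The decoy receptor gene Il1r2, from 19 reads in all, had a log2 fold change of −3.05 (SE 0.93, edgeR adjusted p = 0.156) that did not pass, and Il1r1, with 9 reads in all, was not tested. Of the flanking genes, Map4k4, the only abundant one, was at 27.4, 28.6, and 28.8 RPKM in TEff and at 25.2, 25.7, and 28.8 RPKM in TRM-like cells, with a log2 fold change of −0.09. Rfx8 at −1.40, Mfsd9 at −0.33, and Slc9a2 at −0.02 on the log2 scale did not pass either, and Creg2 and Slc9a4 had too few reads to be tested.

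**Figure D3:**
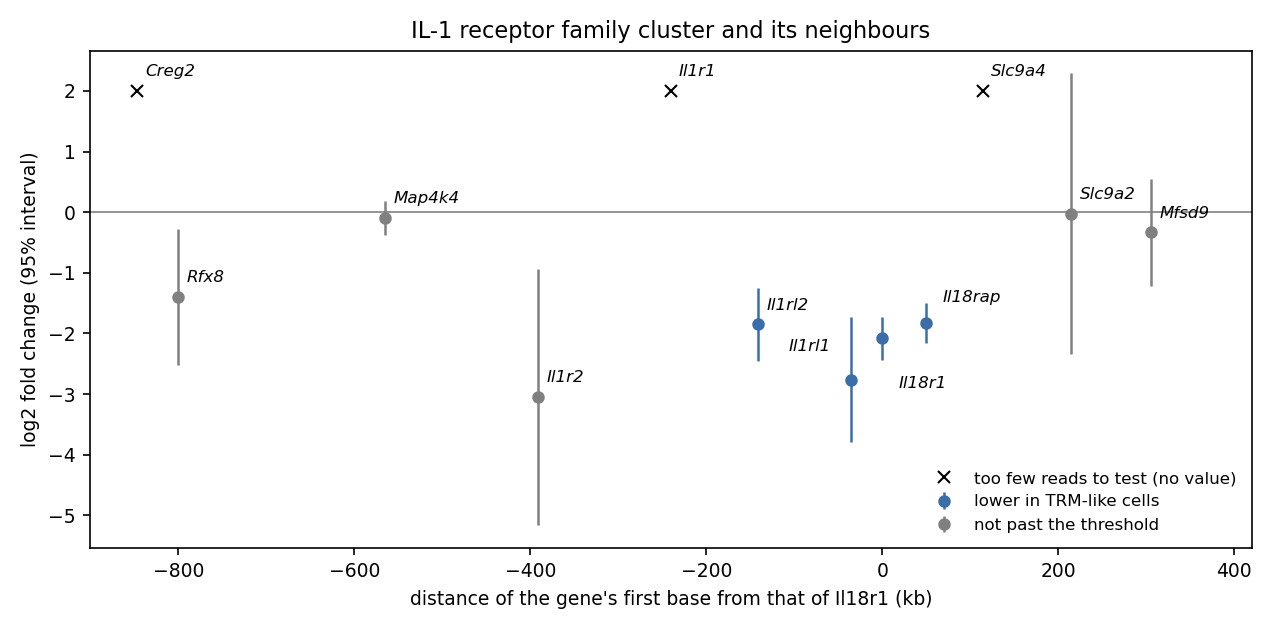
Log2 fold change (TRM-like over TEff, with the 95% interval of the edgeR fit) of the IL-1 receptor family cluster and its flanking protein-coding genes against distance from the first base of Il18r1 in kilobases. The 4 genes in blue, Il1rl2, Il1rl1, Il18r1, and Il18rap, passed the threshold as lower in TRM-like cells, gray genes did not pass, and crosses are genes with too few reads to have a value.

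Genes whose values over the 6 samples were most like those of Il18r1 were taken as those with the smallest root mean square difference in centered log2 CPM among the 14822 genes that had 10 or more counts in all samples. Adcy6, an adenylyl cyclase, was closest at 0.09, at 1.45, 2.02, and 1.36 RPKM in TEff and at 0.354, 0.376, and 0.367 RPKM in TRM-like cells. Itgb3, the integrin beta 3 chain, followed at 0.0964, with 8.11, 12.2, and 8.40 RPKM in TEff and 2.16, 2.22, and 1.95 RPKM in TRM-like cells. Both were picked for likeness to Il18r1 over these same samples, and like it they were highest in TEff replicate 2. Il18rap was the ninth closest, at 0.189, and was highest in TEff replicate 3.

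The balance of chains within a receptor was compared as ratios of reads per kilobase within each sample, which do not depend on library scaling. For 9 pairs, a two-sided exact permutation test over samples was run, which with 3 against 3 samples cannot go below p = 0.1, so that no pair could pass 0.05. Il15ra to Il2rb was 0.0114, 0.0121, and 0.00900 in TEff and 0.0162, 0.0160, and 0.0190 in TRM-like cells. Il7r to Il2rg was 0.428, 0.615, and 0.396 in TEff and 0.262, 0.277, and 0.0706 in TRM-like cells. These ratios did not overlap between the groups, nor did Il4ra to Il2rg, with means of 0.404 and 0.344, or Il21r to Il2rg, with means of 0.317 and 0.482, and each of the 4 pairs had the smallest p that the exact test allows, 0.1 (0.225 adjusted over the 9 pairs).

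The ratio of Il2ra to Il15ra, the 2 alpha chains, was 16.3, 13.0, and 23.7 in TEff and 4.89, 4.72, and 13.2 in TRM-like cells. TRM-like replicate 3 lay just above the lowest TEff value and made the groups overlap (exact permutation p = 0.2, adjusted 0.36). Il18r1 to Il18rap was 1.53, 1.85, and 1.44 in TEff and 1.24, 1.29, and 1.55 in TRM-like cells, so the ratio overlapped although both chains fell (exact permutation p = 0.3, adjusted 0.45). Il2ra to Il2rb, Il12rb2 to Il12rb1, and Il2rb to Il2rg overlapped too, with exact permutation p of 0.4, 0.6, and 0.9.

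**Figure D4:**
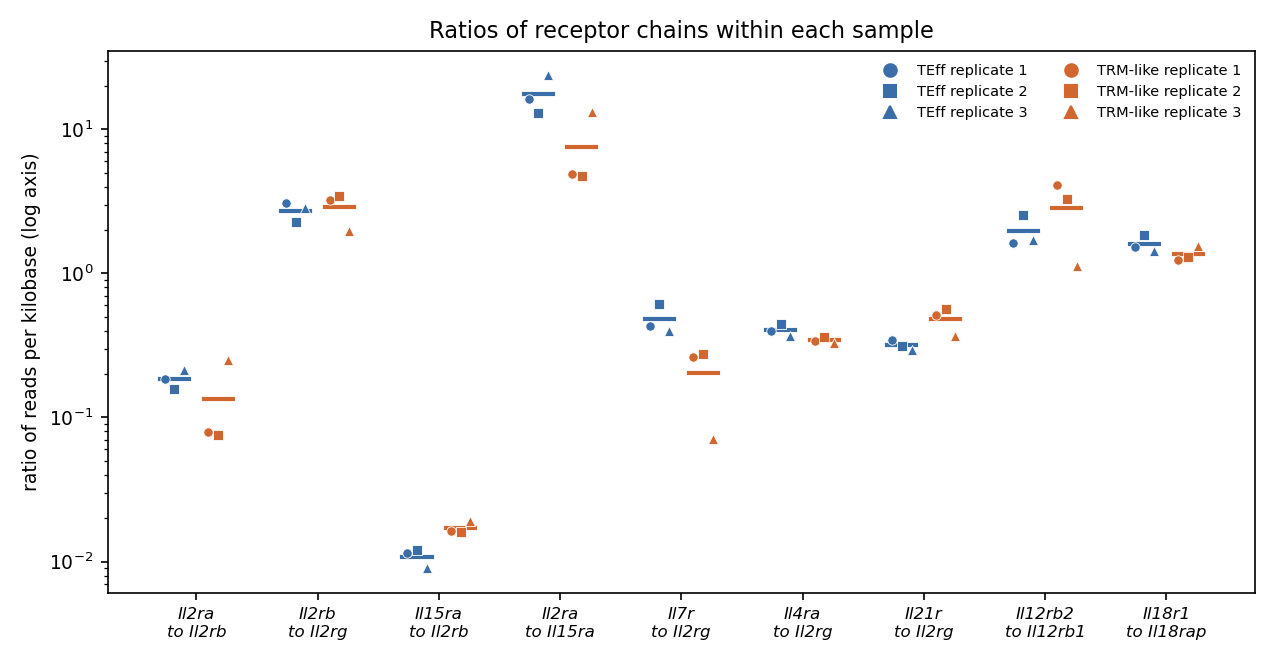
Ratio of reads per kilobase between chains of the same or a competing receptor in each sample, on a log axis, with TEff in blue, TRM-like in orange, the symbol shape giving the replicate, and the bar the group mean. Il15ra to Il2rb and Il21r to Il2rg are higher, and Il7r to Il2rg and Il4ra to Il2rg lower, in every TRM-like sample than in any TEff sample, while the other 5 pairs overlap.

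Genes around the receptors were described in 7 lists of 81 genes, of which 74 were tested, 6 rose, and 7 fell. Over all genes tested, 1.52% rose and 1.48% fell. Without TRM-like replicate 3, 14% of all genes passed in either direction, and the counts of each list without it stand beside that larger share. Among other chains of the same cytokine families, 3 of 11 tested fell and none rose, namely Il18rap, Il1rl2, and Il1rl1 described above, with a list median log2 fold change of −0.64 beside 0.02 over all genes tested. Without TRM-like replicate 3, 2 of these 11 were higher and 5 lower. For the lists in which no gene passed as higher in the edgeR test, the number higher at an unadjusted p below 0.05, and then the numbers that passed as higher with DESeq2 and with limma-voom, were 2, 0, and 0 for these other chains, 3, 1, and 0 for the cytokines, and 1, 1, and 0 for the transcription factors. For those in which none passed as lower, the same numbers of lower genes were 1, 0, and 0 for the JAK kinases and STAT factors and 2, 0, and 0 for the feedback inhibitors and STAT5 targets.

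Of the chains for interferons, IL-10, IL-17, TNF, and the beta common cytokines, 2 of 12 rose and 1 fell (median log2 fold change 0.07). Both chains of the IFN-γ receptor moved, in opposite directions. Ifngr2, its signaling chain, rose from 0.197, 0.246, and 0.134 RPKM in TEff to 2.19, 2.45, and 2.85 RPKM in TRM-like cells, a log2 fold change of 3.68 (SE 0.26, edgeR quasi-likelihood adjusted p = 0.000209). Ifngr1, its ligand-binding chain, fell from 242, 325, and 264 RPKM to 132, 151, and 123 RPKM, by 1.03 on the log2 scale (SE 0.16, edgeR adjusted p = 0.0102). Both held in TRM-like replicate 3 as in the other samples. Tnfrsf1b, which encodes TNF receptor 2, rose by 0.86 (SE 0.17, edgeR adjusted p = 0.0279), from 21.3, 20.2, and 21.6 RPKM to 41.3, 43.6, and 29.3 RPKM. Without TRM-like replicate 3, 2 of the 12 were higher and 2 lower.

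Of the 12 cytokines that these receptors bind, 8 were tested, 1 fell, and none rose (median log2 fold change 0.30). Il18 and Il12a reached 2.57 and 3.90 RPKM in their highest sample, and the others stayed below 0.5 RPKM. When TRM-like replicate 3 was left out, 6 were tested, with 1 higher and 1 lower. Il18 was counted at 46, 47, and 48 reads in TEff and at 11, 15, and 8 reads in TRM-like cells and fell by 2.23 on the log2 scale (SE 0.31, edgeR quasi-likelihood adjusted p = 0.00592). The cytokine and both chains of its receptor were thus lower together. Il12a, one subunit of IL-12, had 13, 14, and 15 reads in TEff and 129, 124, and 16 reads in TRM-like replicates 1, 2, and 3, so that replicate 3 was at the TEff level. Its log2 fold change of 2.47 (SE 0.66, edgeR adjusted p = 0.0959) did not pass, and without replicate 3 it was 2.95 (edgeR adjusted p = 2.25e-06). The other IL-12 subunit, Il12b, had 0 reads in each TEff sample and 3, 1, and 0 reads in TRM-like samples.

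Il2 had 5, 9, and 7 reads in TEff and 12, 9, and 12 reads in TRM-like cells, and Il15 had 3, 8, and 0 reads against 7, 4, and 2 reads. Neither passed, at these few reads. Il7 had 1, 3, and 0 reads against 4, 1, and 0, and Il23a had 1, 1, and 3 against 2, 3, and 0. No read of Il4, Il13, Il9, Il21, or Tslp was counted in TEff, and TRM-like replicates 1, 2, and 3 had 1, 0, and 2 reads of Il4, 5, 1, and 6 reads of Il13, 0, 1, and 0 reads of Il9, 3, 0, and 0 reads of Il21, and 1, 4, and 1 reads of Tslp. Of these cytokines, Il2, Il15, Il7, Il23a, Il13, and Tslp were tested and did not pass, and Il4, Il9, and Il21, like Il12b, had too few reads to be tested. The olfactory and vomeronasal receptor genes stood at 0.028 RPKM in TRM-like replicate 1. There, Il4, Il21, and Tslp, at 0.044, 0.041, and 0.039 RPKM, lay near that level, and Il13, at 0.181 RPKM, lay above it. In replicate 2, where those genes stood at 0.029 RPKM, Il13, Il9, and Tslp were at 0.036, 0.082, and 0.155 RPKM. In replicate 3, where they stood at 0.004 RPKM, Il4, Il13, and Tslp were at 0.094, 0.230, and 0.041 RPKM. Each of these values rested on at most 6 reads.

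Downstream of the receptors, 2 of 11 JAK kinases and STAT factors rose and none fell (median log2 fold change 0.06). Stat2, a factor of the type I interferon response, rose from 5.93, 7.15, and 7.33 RPKM in TEff to 13.7, 13.1, and 9.91 RPKM in TRM-like cells, by 0.85 on the log2 scale (SE 0.16, edgeR quasi-likelihood adjusted p = 0.0261). Stat5a and Stat5b, which IL-2, IL-15, and IL-7 activate, had log2 fold changes of 0.06 and −0.13, and Stat4, which IL-12 activates, −0.37. Jak3, the kinase bound to the common gamma chain, was at 19.0, 23.3, and 17.1 RPKM in TEff and at 33.7, 36.2, and 19.96 RPKM in TRM-like cells, with replicate 3 within the TEff range, and did not pass (log2 fold change 0.60, edgeR adjusted p = 0.261). It passed at 0.81 (edgeR adjusted p = 0.000622) without that replicate, when 3 of the 11 were higher and none lower.

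Among feedback inhibitors and targets of STAT5, 2 of 12 rose and none fell (median log2 fold change 0.18). Socs1, an inhibitor of JAK kinases, rose from 12.1, 11.9, and 12.6 RPKM to 19.8, 23.6, and 19.9 RPKM, by 0.79 on the log2 scale (SE 0.13, edgeR quasi-likelihood adjusted p = 0.0115). Pim2, a survival kinase, rose from 30.9, 38.1, and 26.8 RPKM to 65.2, 65.1, and 53.6 RPKM, by 0.94 (SE 0.16, edgeR adjusted p = 0.0173). The 2 genes had separate groups with replicate 3 included. Pim1, its relative, was at 44.8, 37.9, and 43.8 RPKM in TEff and at 16.2, 17.4, and 40.5 RPKM in TRM-like cells, a pattern across samples like that of Il2ra, and did not pass (log2 fold change −0.77, edgeR adjusted p = 0.306). Pim1 passed at −1.34 (edgeR adjusted p = 4.9e-06) without TRM-like replicate 3, when 2 of the 12 were higher and 2 lower. Of the 12, 6 were higher in every TRM-like sample than in any TEff sample, as were 10.6% of all genes. In the other direction, 1 was lower in every TRM-like sample, as were 9.71% of all genes. The groups overlapped for Pim1.

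None of the 8 genes of IL-18 receptor signaling, Myd88, Irak1, Irak2, Irak3, Irak4, Traf6, Il18bp, and Sigirr, passed in the edgeR test over all 6 samples (median log2 fold change 0.175), nor with DESeq2 or limma-voom, and 2 had an unadjusted p below 0.05 in the edgeR test, both higher. The smallest p was that of Irak3, an inhibitory kinase relative, at 0.710, 1.02, and 0.601 RPKM in TEff and 1.83, 1.22, and 1.00 RPKM in TRM-like cells (log2 fold change 0.79, SE 0.30, edgeR adjusted p = 0.257). Without TRM-like replicate 3, 2 of the 8 passed as higher, Irak3 and Irak4.

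Of 12 transcription factors known to act on receptor genes, 2 fell and none rose (median log2 fold change −0.28). Eomes, a T-box factor that promotes Il2rb, fell from 2.43, 3.50, and 3.40 RPKM to 0.862, 0.816, and 0.500 RPKM, by 2.09 on the log2 scale (SE 0.25, edgeR quasi-likelihood adjusted p = 0.00308). Runx1 fell from 0.589, 0.992, and 0.482 RPKM to 0.0995, 0.106, and 0.0681 RPKM, by 2.90 (SE 0.35, edgeR adjusted p = 0.00301). Its TRM-like values rested on 17, 18, and 11 reads. The olfactory and vomeronasal receptor genes stood at 0.028 and 0.029 RPKM in TRM-like replicates 1 and 2. Tbx21, the other T-box factor, did not pass at −0.26, and neither did Foxo1, an activator of Il7r, at −0.30. Leaving out TRM-like replicate 3, 2 of the 12 were higher and 4 lower.

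**Figure D5:**
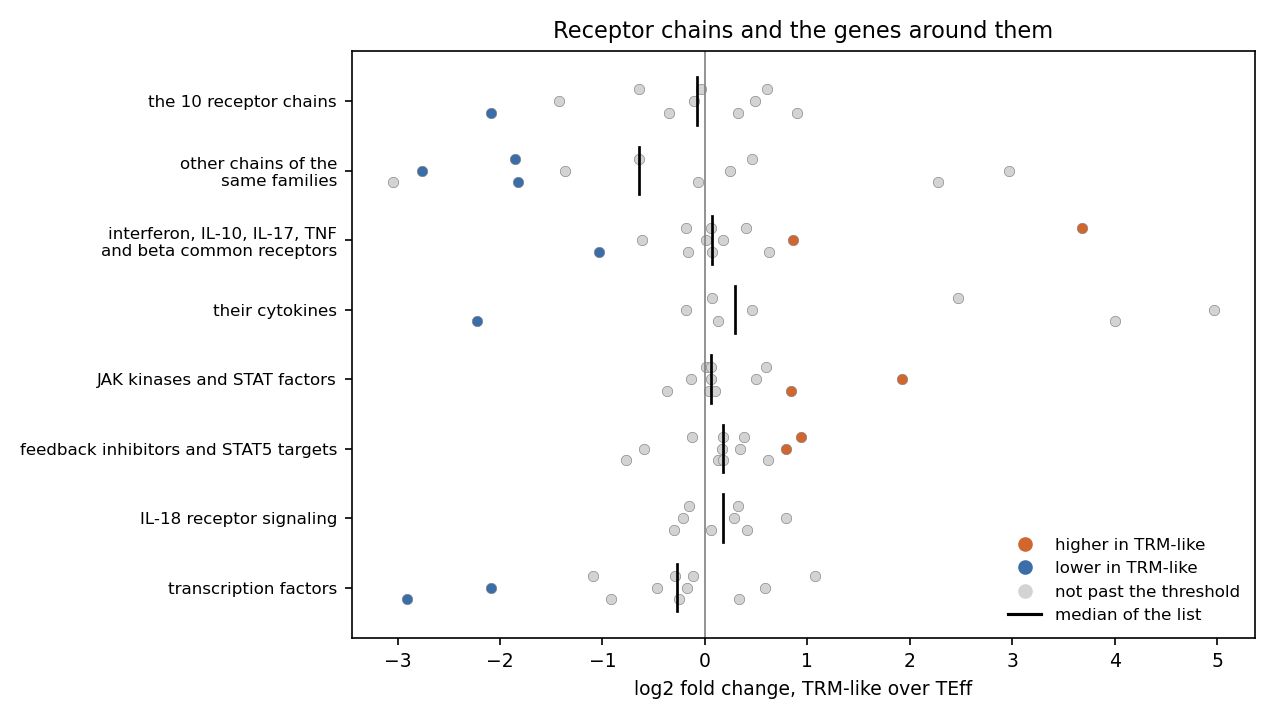
Log2 fold change (TRM-like over TEff) of every tested gene in the receptor set and in each of the 7 lists around it, 1 point per gene, orange or blue where the gene passed the threshold as higher or lower and gray where it did not, with a black bar at the list median. The 10 receptor chains hold 1 gene that passed, and of the lists only the interferon, IL-10, IL-17, TNF, and beta common chains hold genes past the threshold in both directions.

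Binding motifs of factor families that act on these genes were searched in the 250 bases before the start of each gene's canonical transcript on GRCm39, on both strands, and the same was done for 21757 promoters. The STAT motif TTCNNNGAA occurred in Il7r, Il12rb2, and Il18r1, 3 of the 10 chains, and in 7.7% of all promoters. Those 4 sites, 2 of them in Il18r1, are shown here with 10 bases on each side and the motif in capitals. Il18r1 is the chain that fell. Without TRM-like replicate 3, Il7r passed as lower and Il12rb2 as higher. Il2ra and Il15ra also passed then, and their windows held no STAT motif. Coordinates are those of the printed stretch, and each is written in the direction of its gene. The canonical start can lie inside the gene span given above. The windows of Il2rb, Il15ra, Il7r, Il4ra, Il21r, and Il18r1 therefore fall wholly or partly within that span. So do the stretches printed for Il18r1, Il7r, and Il4ra.

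Il18r1, chr1:40504817-40504845, plus strand, 191 bases before the start: aggctgcaggTTCCGGGAAgccaaaggcg

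Il18r1, chr1:40504937-40504965, plus strand, 71 bases before the start: tcggggttagTTCTGGGAActgtggagct

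Il7r, chr15:9530086-9530114, minus strand, 183 bases before the start: gttcaggagcTTCAGGGAAtaccaagatg

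Il12rb2, chr6:67353277-67353305, minus strand, 123 bases before the start: gttcccttttTTCTCAGAAccgcactaag

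The ETS motif CCGGAAG occurred in Il2rg (6.89% of promoters), the T-box motif AGGTGNGA in Il15ra (4.63%), and the forkhead motif GTAAACA in Il4ra and Il21r (2.72%). The sites of the neighboring genes Il4ra and Il21r, whose values lay in opposite directions, both match the forkhead motif, on the strand of the gene in Il4ra and on the other strand in Il21r.

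Il4ra, chr7:125151157-125151183, plus strand, 125 bases before the start: cagacgctgaGTAAACAttgggaaaat

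Il21r, chr7:125202553-125202579, plus strand, 103 bases before the start: ggcggggcacTGTTTACcacatcccct

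A motif is a match of letters and not a measured binding site, and the windows of Il2ra, Il2rb, and Il12rb1 held none of the 4 motifs.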

How the data were processed

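RNA sequencing data of 6 samples (3 TEff and 3 TRM-like, grouped by their labels) were used. Libraries were stranded total RNA. Per the labels, the authors trimmed reads with Cutadapt 4.8, and the methods name Rsubread with GRCm39 and a GENCODE annotation. The authors deposited raw counts per gene, not normalized, with gene lengths. The strand setting, the treatment of reads that map to several places, and the batch that the authors removed in their own analysis are not given in the sources used here. Symbols and coordinates came from GENCODE M39 on the same build, which held 56620 of the 57126 genes.

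In R 4.3.3, the quasi-likelihood test of edgeR 4.0.16 (TMM scaling, glmQLFit, then glmQLFTest) was fitted to the counts of all genes seen in 3 or more samples. Genes passed at p below 0.05, after Benjamini-Hochberg adjustment, and a log2 fold change beyond 0.58 in size. Standard errors were derived from the F statistics. RPKM divides counts by the deposited gene length. Alternatives were DESeq2 1.42.0, limma 3.58.1 (voom), other scalings, other filters, the fold threshold left out, the replicate number as a block, and leaving out each sample. The script was tested on simulated data.

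The 10 chains, the gene lists, the marker lists, and the motifs were chosen with earlier results of these data known. Named were all 10 chains, Il18rap, all cytokines of their list, in each list the genes that passed, up to 4 by smallest p, or else the 1 with the smallest p, and the 2 genes most like each chain that passed. Serbp1, Map4k4, the IL-1 receptor cluster, Jak3, Stat4, Stat5a, Stat5b, Pim1, Tbx21, Foxo1, Irak4, and Klrb1c were named in addition, after their values were seen. One gene that the rule would name is not reported here.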

Additional observations from a re-analysis of the deposited data

How the results depend on the processing

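Il18r1 passed in all 15 alternatives to the test behind its fold change, at −2.16 to −1.94 on the log2 scale with an adjusted p of at most 0.00422. The number of chains that passed, 1 over all 6 samples, was 3 with DESeq2, 4 with no filter, 5 with the replicate block, and 2 with the replicate block and 10 counts in every sample, and 1 to 5 when 1 sample was left out, 5 only without TRM-like replicate 3. The chains added were Il15ra and Il7r with DESeq2, Il2ra, Il12rb2, and Il7r with no filter, these and Il15ra with the block or without TRM-like replicate 3, and Il7r with the block and the stricter filter. The shares of all genes that passed were then 4.8% (DESeq2), 4.42% (no filter), 7.78% and 6.09% (with the block), and 14% (without TRM-like replicate 3), against 3.01%. With no filter, the median log2 fold change of all genes moved to 0.38. Genes of the 7 lists that passed, 13 over all samples, were 21 with DESeq2, 26 with no filter, 25 with the replicate block, and 5 to 28 when 1 sample was left out: 7 without TEff replicate 1, 5 without TEff replicate 3, 8 without TRM-like replicate 2, and 28 without TRM-like replicate 3. Il2rb ranged from −0.14 to 0.11 on the log2 scale when 1 sample was left out, and changed sign to 0.003 without TEff replicate 3 and 0.11 without TRM-like replicate 3. In 134 alternative values of single chains, the chain kept its direction and its side of the threshold, in 14 it kept its direction and now passed, and in 2 it changed sign. The cause was not tested. The labels do not say whether same-numbered samples were paired. Deviations of same-numbered samples from their group means correlated at −0.292, 0.309, and 0.389 over 14822 genes. The largest correlation, 0.519, was between TEff replicate 2 and TRM-like replicate 1. Deviations within a group of 3 offset one another, so these correlations do not settle a pairing. With 3 samples a group, the exact test of a ratio could not reach 0.05, and the counts of most cytokines were too low to resolve a difference.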

Other observations

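The genes next to the receptor chains on the chromosome were looked at after the values of the chains had been seen. Of the genes on either side of Il2rb, Tmprss6, a serine protease known from liver iron regulation that lies 10.6 kb away, was at 1.40, 0.888, and 1.68 RPKM in TEff and at 0.232, 0.137, and 0.130 RPKM in TRM-like cells, and fell by 2.97 on the log2 scale (SE 0.36, edgeR quasi-likelihood adjusted p = 0.00289). C1qtnf6, on the other side, was at 3.94, 4.59, and 4.97 RPKM against 3.21, 3.38, and 2.42 RPKM and did not pass (log2 fold change −0.58, edgeR adjusted p = 0.175), and Il2rb itself had a log2 fold change of −0.04. Il23r, which follows Il12rb2 after 38.1 kb, had 3, 2, and 0 reads in TEff and 23, 23, and 1 reads in TRM-like replicates 1, 2, and 3, with replicates 1 and 2 the highest, as for Il12rb2. It did not pass over all 6 samples (edgeR adjusted p = 0.221) and passed without TRM-like replicate 3 (log2 fold change 3.49, edgeR adjusted p = 0.00128). The genes flanking the adjacent pairs Il2ra and Il15ra (Rbm17 and Fbh1) and Il4ra and Il21r (Nsmce1 and Gtf3c1) had log2 fold changes of −0.13, 0.19, −0.39, and 0.20, and none passed.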
